A study of Drosophila melanogaster with 6 samples.

Results

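The genes described here are 10 genes of lipid synthesis and of the lipid droplet, the organelle in which cells store neutral fat. They were chosen by symbol from the 17807 genes of the deposited table: FASN1, ACC, SREBP, Desat1, Lpin, mdy, bmm, Lsd-1, Lsd-2 and Hsl. Their levels were followed in RNA-seq libraries of body wall muscle preparations from Drosophila melanogaster larvae wandering in the third instar, when they stop feeding and leave the food. The genotype of the knockdown group was Dmef2-Gal4>UAS-madRNAi (Mad knockdown, 3 libraries) and that of the comparison group was Dmef2-Gal4>UAS-mCherryRNAi (control knockdown, 3 libraries). Both groups therefore carry the Dmef2-Gal4 driver, which acts mainly in muscle, and a hairpin transgene, against either Mad, the transcription factor of bone morphogenetic protein (BMP) signalling, or mCherry, a fluorescent protein foreign to the fly. Each library pooled lysates of 6 to 10 larvae, so larvae cannot be told apart within a library, and the labels do not give their sex. The labels call the material muscle enriched, which leaves room for RNA of other tissues that the driver does not reach.

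Fat is made in the cytosol from acetyl-CoA. Acetyl-CoA carboxylase, the product of ACC, makes malonyl-CoA, and fatty acid synthase, here FASN1, builds it into saturated chains that the desaturase Desat1 can make unsaturated. The phosphatidate phosphatase Lpin and the acyltransferase mdy, known as midway and related to mammalian DGAT1, take the last steps to triglyceride. The perilipins Lsd-1 and Lsd-2 coat the droplet surface, and the lipases bmm, the fly relative of mammalian ATGL, and Hsl, the relative of hormone-sensitive lipase, release fatty acids from it. SREBP is a membrane-bound transcription factor that is cut free to switch on fatty acid synthesis genes. In fly larvae the fat body holds most stored fat, and oenocytes, cells beneath the epidermis, make very long fatty acids and hydrocarbons.

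The recovered counts ran from 109301864 to 127220949 in the Mad knockdown libraries and from 96639921 to 124490149 in the control knockdown libraries. For these genes the spread between libraries and counting error were not separated. Mad itself averaged 5015 ± 648 normalized counts in Mad knockdown and 7400 ± 344 in control knockdown (SD, n = 3 each). Its log2 fold change was -0.57 (adjusted p = 0.0440 in limma), and an exact two-sided permutation test gave p = 0.1, the smallest that 3 libraries against 3 allow. That limma call was lost in 8 of 18 alternative fits. All 9 muscle markers were present in every library, with summed normalized counts from 1293007 to 1910221 in Mad knockdown and from 2525232 to 3503774 in control knockdown, without overlap. Of these markers 8 were lower in Mad knockdown. limma and edgeR called 0 of the 9, where they called 2.59% and 2.44% of all tested genes. DESeq2 called 7 of the 9, all lower, where it called 9.69% of all tested genes. The 6 fat body markers summed to between 20393 and 39814 in Mad knockdown and between 24427 and 39543 in control knockdown. The 3 oenocyte markers in the table summed to between 78015 and 86775 in Mad knockdown and between 76961 and 90449 in control knockdown. Of these 3, Fad2 had 1.81 normalized counts in Mad knockdown replicate 2 and 0 in every other library. The oenocyte sum thus rests on Cyp4g1 and FarO. By these sums RNA of both fat-handling tissues was present at overlapping levels. The sums of 5 haemocyte markers did not overlap, at 74116 to 82926 in Mad knockdown and 86033 to 121154 in control knockdown, nor did those of 5 salivary gland markers, at 16.8 to 145 in Mad knockdown and 279 to 2517 in control knockdown. Of the haemocyte markers 3 were lower in Mad knockdown and 2, NimC1 and He, were higher. The 4 salivary gland markers tested were all lower. Sums overlapped for 5 nervous system markers (7769 to 8269 in Mad knockdown, 7574 to 8007 in control knockdown), 5 midgut markers (72.9 to 4074 in Mad knockdown, 36.5 to 131 in control knockdown, with Jon99Ci at 0 throughout) and 5 epidermis and cuticle markers (7250639.8 to 10361195 in Mad knockdown, 8039695 to 10530403 in control knockdown). The midgut sum of 4074 was that of Mad knockdown replicate 3, mostly Jon65Aiii at 3698. Mad knockdown replicates 1 and 2 had midgut sums of 72.9 and 280. Of the other marker lists limma and edgeR called 0 genes. DESeq2 called 3 of 4 salivary gland markers, 1 of 5 haemocyte markers (Hml) and 1 of 5 nervous system markers (elav), all lower in Mad knockdown. The shares over all tested genes are those given above for each tool. In these pooled lysates fewer cells of a type and less RNA per cell cannot be told apart, and the part of tissue content in the results below was not tested.

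The log2 fold changes of these 10 lipid genes, Mad knockdown over control knockdown, lay between -0.080 and 0.20. limma, with Benjamini-Hochberg adjustment over all tested genes, called 0 of the 10 genes at an adjusted p-value under 0.05, against a background of 2.59% of the 10348 genes tested. The lowest adjusted p-value was 0.221. At an unadjusted p-value under 0.05 there were 2, SREBP and Lpin, where 19% of all tested genes passed. edgeR (background 2.44%) and DESeq2 (background 9.69%), applied to counts recovered from the table, also called 0 of the 10, each with 2 at an unadjusted p-value under 0.05. The groups did not overlap for 2 of 10 genes, again SREBP and Lpin, both higher in Mad knockdown. The background was 24.6% without overlap, with 11.6% higher and 13% lower in Mad knockdown. The fitted change was above 0 for 7 of the 10 and the median log2 fold change was 0.097, where 51.1% of all tested genes were above 0 and their median was 0.0054. All 10 genes passed the filter on low values.

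The limma intervals give a range for the change of each gene in RNA of the whole preparation, not of muscle alone. They use variances that limma moderates toward those of other genes. This narrows them for a gene as variable as Lsd-1, whose pooled SD within groups was 0.496 on the log2 scale. For 9 of the 10 genes the 95% interval of the fold change lay within 1.5-fold of equality in either direction, and for all 10 it lay within 2-fold. The standard error was below the all-gene median of 0.123 on the log2 scale for 7 of the 10.

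**Figure D1:**
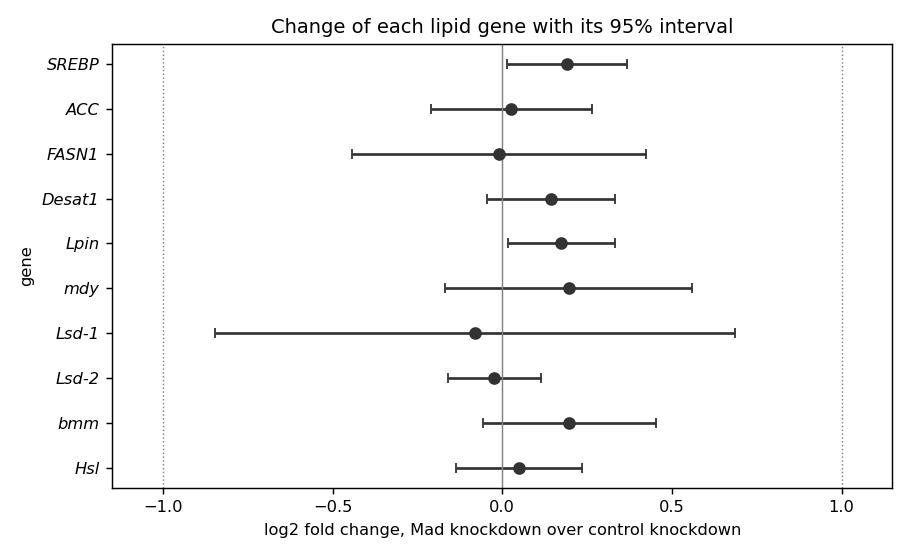
Log2 fold change of each of the 10 lipid genes, Mad knockdown over control knockdown (x axis), with its 95% interval from limma (bars), genes from SREBP at the top to Hsl at the bottom. Dotted lines mark a 2-fold difference in either direction. No interval reaches them, and only those of SREBP and Lpin leave out 0, before adjustment over all genes.

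The regulator SREBP (FBgn0261283, chromosome 3L, 19793935 to 19798979, plus strand in the dm6 assembly) had 16684, 14934 and 14860.5 normalized counts in Mad knockdown replicates 1, 2 and 3, against 13885, 14136 and 12687 in control knockdown replicates 1, 2 and 3. Every Mad knockdown library was above every control library, with the nearest pair 14860.5 and 14136. The means were 15493 ± 1032 in Mad knockdown and 13569 ± 775 in control knockdown (SD, n = 3 each). The fold was 1.14 with a 95% interval of 1.01 to 1.29, and the adjusted p-value in limma was 0.234, so the difference is not called.

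Of the enzymes that make fatty acids, ACC (FBgn0033246, 2R, 7974115 to 7991862, minus strand) had 10596, 11108 and 10114 normalized counts in Mad knockdown and 12011, 9479 and 9886 in control knockdown. The Mad knockdown values all lay inside the control range. Its fold was 1.02 (95% interval 0.865 to 1.20), with a mean of 10606 ± 497 in Mad knockdown and 10459 ± 1359.6 in control knockdown.

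FASN1 (FBgn0283427, 2L, 3056598 to 3068177, plus strand) had 4987, 3261 and 4577 normalized counts in Mad knockdown and 5031, 3824 and 3938 in control knockdown. The groups overlapped, and each held both a high and a low library, with Mad knockdown replicate 2 the lowest of the 6. The means were 4275 ± 902 in Mad knockdown and 4264 ± 667 in control knockdown, a fold of 0.994 (95% interval 0.736 to 1.34). On the log2 scale its pooled SD within groups was 0.276, above that of 94.4% of the 500 tested genes nearest in level. Leaving out Mad knockdown replicate 2 gave a log2 fold change of 0.18 with no call, and the sign of this gene's change is not read. The paralog FASN2, a second fatty acid synthase gene, ends 454 bases before FASN1 on the same strand. It had 2755, 1875 and 2564 normalized counts in Mad knockdown and 3718, 2918 and 1886 in control knockdown, also with no call (adjusted p = 0.731 in limma). How reads that match both paralogs were counted is not given in the sources used here.

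Desat1 (FBgn0086687, 3R, 12439600 to 12447616, plus strand) was the most abundant of the 10, with 40983, 36050 and 35521 normalized counts in Mad knockdown and 35535, 32807 and 33400 in control knockdown. The groups touched, since control replicate 1 at 35535 lay above Mad knockdown replicate 3 at 35521. The means were 37518 ± 3012 in Mad knockdown and 33914 ± 1435 in control knockdown, a log2 fold change of 0.14 (95% interval of the fold 0.969 to 1.26, adjusted p = 0.397 in limma). Its paralog Desat2, which ends 1742 bases before it on the same strand, averaged 1.23 normalized counts in Mad knockdown and 3.59 in control knockdown and was too low to test.

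**Figure D2:**
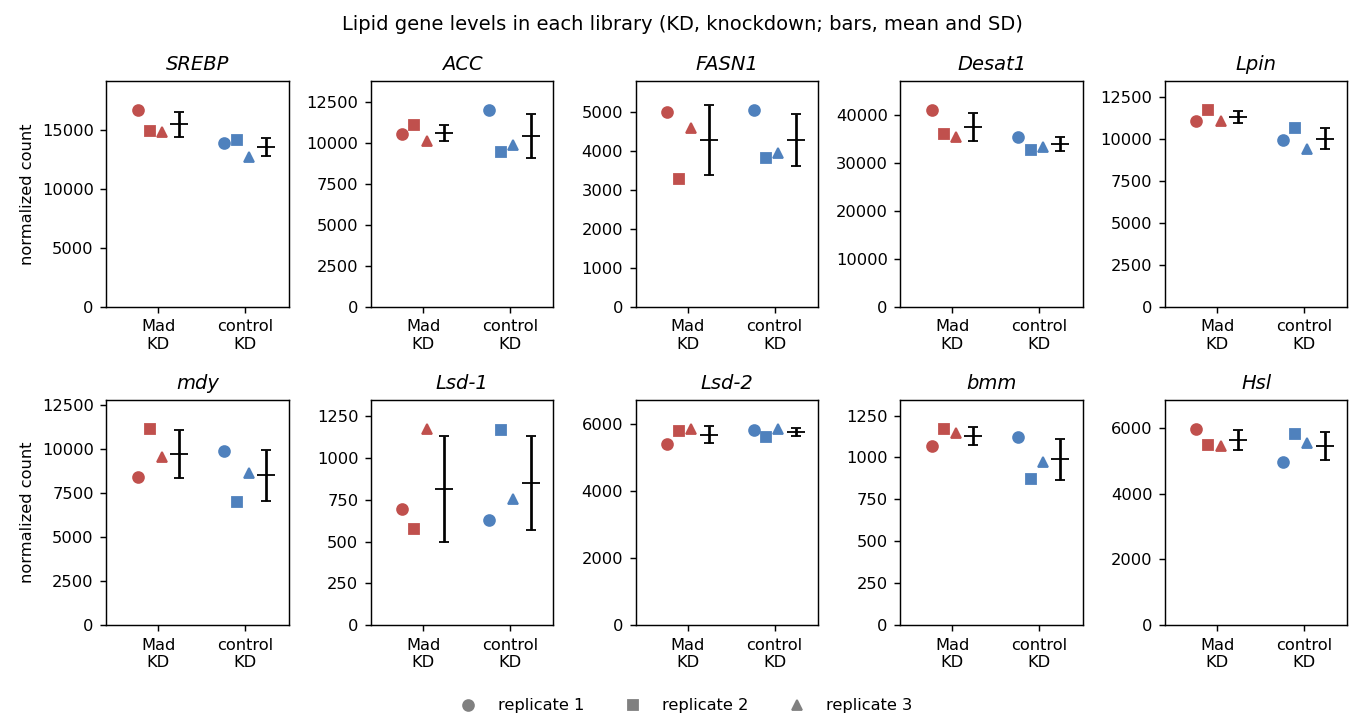
Normalized counts (y axes, each from 0) of the 10 lipid genes in each library, with Mad knockdown left of control knockdown in each panel. Symbols mark replicates 1, 2 and 3, and bars the mean with SD (n = 3 per group). Only SREBP and Lpin have every Mad knockdown library above every control library, and Lsd-1 has 1 library of each group far above the other 2.

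Among the enzymes of triglyceride assembly, Lpin (FBgn0263593, 2R, 8136986 to 8156654, minus strand) had 11093.6, 11720 and 11093.5 normalized counts in Mad knockdown and 9977, 10674 and 9425 in control knockdown. No control library reached the lowest Mad knockdown library. The means were 11302 ± 362 in Mad knockdown and 10025 ± 626 in control knockdown, a fold of 1.13 (95% interval 1.01 to 1.26), and the adjusted p-value in limma was 0.221, the lowest of the 10 genes. Exons of kermit, which lies within the Lpin locus on the same strand, cover 10.9% of the Lpin exons. kermit had 1395, 1558 and 1379.5 normalized counts in Mad knockdown and 1231, 1281 and 1309 in control knockdown, also without overlap and with no call. Whether reads of the shared exons were counted for either gene was not tested.

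The acyltransferase gene mdy (FBgn0004797, 2L, 16816660 to 16826964, plus strand) had 8393, 11123 and 9551 normalized counts in Mad knockdown and 9878, 6979 and 8601 in control knockdown. The groups overlapped, with the highest value in Mad knockdown replicate 2 and the lowest in control replicate 2. Its means of 9689 ± 1370.2 in Mad knockdown and 8486 ± 1453 in control knockdown gave a log2 fold change of 0.20 (95% interval of the fold 0.890 to 1.47, adjusted p = 0.557 in limma). Within-group spread was wide for a gene of this level, above that of 88% of the 500 tested genes nearest in level.

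The droplet coat genes contrasted in how steady they were. Lsd-2 (FBgn0030608, X, 15069127 to 15076220, minus strand), the perilipin linked to fat storage, had 5382, 5782 and 5838 normalized counts in Mad knockdown and 5817, 5616 and 5842 in control knockdown. The groups overlapped almost fully, and its fold of 0.984 had the narrowest interval of the 10, from 0.894 to 1.08. Lsd-1 (FBgn0039114, 3R, 23763857 to 23766662, plus strand), the perilipin through which hormone-stimulated lipolysis acts, had 694, 578 and 1174 normalized counts in Mad knockdown and 630, 1169 and 756 in control knockdown. Mad knockdown replicate 3 and control replicate 2 were thus both near 1170, and the other 4 libraries lay at or below 756. Its fold was 0.946 with the widest interval of the 10, from 0.556 to 1.61, and its SD within groups was above that of 95.4% of the 500 tested genes nearest in level.

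The high and low libraries of Lsd-1 did not follow its groups. Without control replicate 2 the log2 fold change of Lsd-1 was 0.17, and without Mad knockdown replicate 3 it was -0.38, with no call in either fit. In the 2 libraries with high Lsd-1 the fat body markers summed to 39481 in Mad knockdown replicate 3 and 25177 in control replicate 2, the first near the top of the range over all 6 libraries and the other in its lower part. Fbp1 alone gave 22650 of the sum in Mad knockdown replicate 3 and 14060 in control replicate 2. Exons of CG10214 on the opposite strand cover 7.35% of the Lsd-1 exons. CG10214 had 377, 313 and 320.2 normalized counts in Mad knockdown and 345, 370.3 and 380.1 in control knockdown. Whether fat body RNA or reads of the overlapping exons had a part in the Lsd-1 pattern was not tested. Of the tested genes outside the 10, those most like Lsd-1 over the 6 libraries were CG16719, CG6066 and CG10479, looked up after the Lsd-1 values were seen, with Pearson r on the log2 scale of 0.996, 0.986 and 0.980. An r of at least 0.95 with Lsd-1 was reached by 12 tested genes. CG16719 was low, with 20.6, 16.3 and 34.2 normalized counts in Mad knockdown and 17.1, 33.3 and 21.0 in control knockdown. CG6066 had 573, 533 and 715 normalized counts in Mad knockdown and 537, 716 and 562 in control knockdown, high in the same 2 libraries. By contrast dob, a lipase gene paralogous to bmm, lies 35 bases from Lsd-2 with its 3′ end facing it, and had 156, 170 and 142 normalized counts in Mad knockdown and 159, 164 and 187 in control knockdown.

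Of the lipase genes, bmm (FBgn0036449, 3L, 14776496 to 14786412, minus strand) had 1069, 1170 and 1148 normalized counts in Mad knockdown and 1119, 874 and 972 in control knockdown. Control replicate 1 lay inside the Mad knockdown range and the other 2 control libraries lay below it. The means were 1129 ± 53.2 in Mad knockdown and 988 ± 123 in control knockdown, a log2 fold change of 0.20 (95% interval of the fold 0.962 to 1.37, adjusted p = 0.385 in limma). Hsl (FBgn0034491, 2R, 20257650 to 20261726, plus strand) had 5978, 5489 and 5445 normalized counts in Mad knockdown and 4981, 5827 and 5551 in control knockdown. The groups overlapped, and the fold was 1.04 (95% interval 0.910 to 1.18, adjusted p = 0.791 in limma). Within a library bmm stood at 0.179, 0.213 and 0.211 of Hsl in Mad knockdown and at 0.225, 0.150 and 0.175 of it in control knockdown, again with overlap.

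Scaled to exon length, the genes differed far more from one another than between groups. Desat1 was highest, at 15080 ± 1211 normalized counts per kilobase of exon in Mad knockdown and 13631 ± 577 in control knockdown (SD, n = 3 each). SREBP followed at 3819.8 ± 255 in Mad knockdown and 3346 ± 191 in control knockdown, and mdy at 3603 ± 509.6 in Mad knockdown and 3156 ± 540.3 in control knockdown, with ranges that overlap each other. Lpin came next at 2051 ± 65.6 in Mad knockdown and 1819 ± 114 in control knockdown, then Hsl at 1464 ± 76.9 in Mad knockdown and 1416 ± 112 in control knockdown. Lsd-2 (1233 ± 54.1 in Mad knockdown, 1252 ± 27.0 in control knockdown) and ACC (1169.7 ± 54.8 in Mad knockdown, 1153 ± 150.0 in control knockdown) had overlapping ranges. The lowest levels per kilobase were those of FASN1 (489 ± 103 in Mad knockdown, 488 ± 76.2 in control knockdown), bmm (463 ± 21.8 in Mad knockdown, 405 ± 50.7 in control knockdown) and Lsd-1 (416 ± 161 in Mad knockdown, 434 ± 144 in control knockdown), whose ranges overlap.

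**Figure D3:**
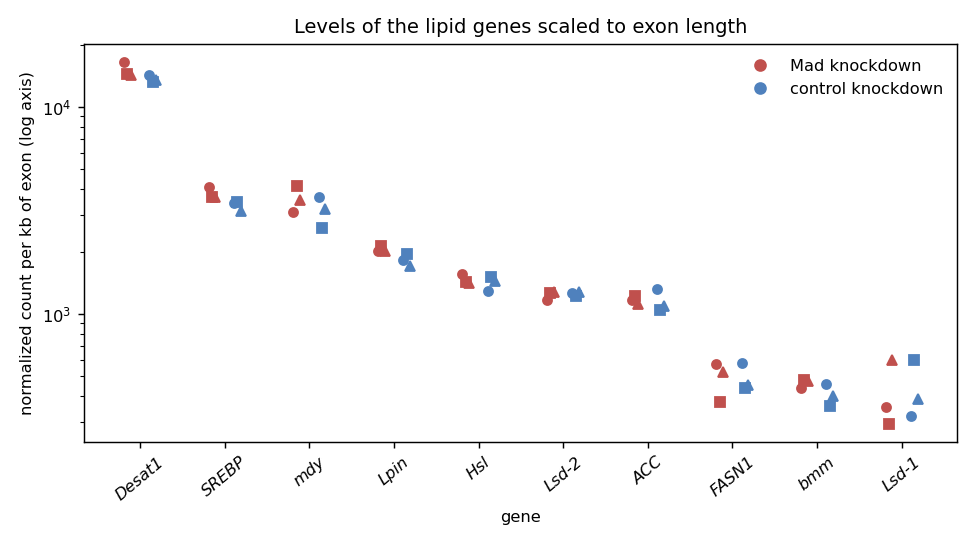
Normalized count per kilobase of exon (y axis, log scale) of the 10 lipid genes, ordered by their mean over 6 libraries, with Mad knockdown libraries left of control knockdown libraries for each gene. Symbols mark replicates as circle, square and triangle for 1, 2 and 3. Desat1 stands 4.01-fold above SREBP, the next in order, and 33.8-fold above Lsd-1, the lowest.

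At these levels both arms of the pathway were transcribed in the preparations. The perilipin genes differed in level, with Lsd-1 at 0.129, 0.0999 and 0.201 of the normalized count of Lsd-2 in Mad knockdown and at 0.108, 0.208 and 0.129 in control knockdown, before scaling to length. FASN1 stood at 0.471, 0.294 and 0.453 of ACC in Mad knockdown and at 0.419, 0.403 and 0.398 in control knockdown, with an SD of 0.0974 in Mad knockdown and 0.0107 in control knockdown. The low value of Mad knockdown replicate 2 makes most of that spread, and the difference in spread was not tested.

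The genes also varied together to different degrees over the 6 libraries. Of the 45 pairs, 29 had a Pearson r above 0 on the log2 scale, with a median of 0.17 and a range from -0.77 to 0.92. The points of each correlation share the libraries and their scaling. The correlations are given as a description, without the same values for other gene pairs. The highest was between mdy and bmm, which make and break down triglyceride, at 0.92. Both were lowest in control replicate 2 and highest in Mad knockdown replicate 2. Desat1 and SREBP followed at 0.86, and both were highest in Mad knockdown replicate 1. The lowest was between ACC and Lsd-1, and Lsd-2 and Hsl stood at -0.75. In each of the 3 Mad knockdown libraries 7 of the 10 genes were above their own mean, and in control replicates 1, 2 and 3 this held for 5, 3 and 2 genes. Each mean spans both groups, so these counts are not separate from the fitted changes above. The same share over all tested genes is not given here.

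**Figure D4:**
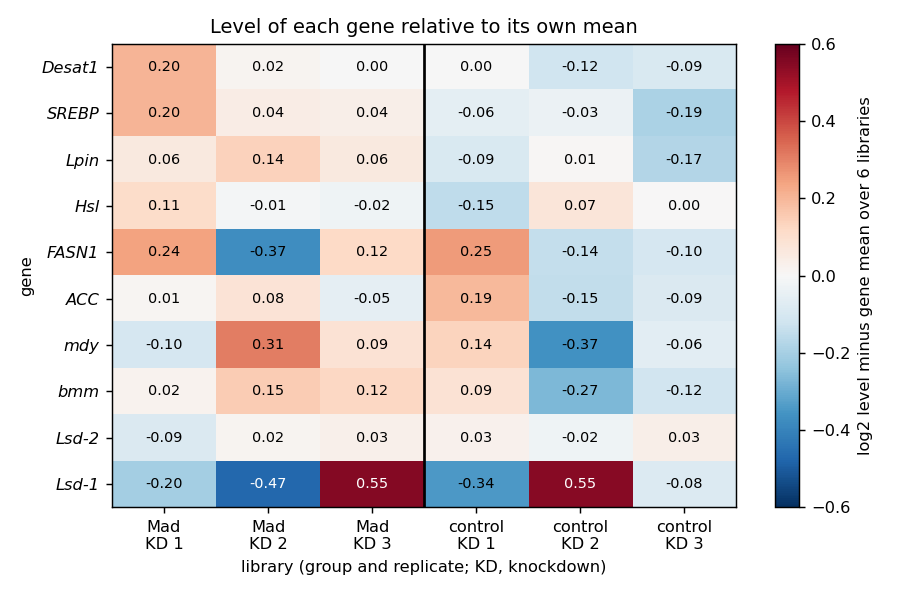
Level of each lipid gene in each library relative to its own mean over the 6 libraries (log2 difference, colour and printed value), with Mad knockdown libraries left of the black line and control knockdown libraries right of it. Lsd-1 has the widest range, from -0.47 to 0.55, and mdy and bmm are both lowest in control replicate 2.

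For Lpin, the gene with the lowest p-value, the tested genes outside the 10 with the most similar levels over the 6 libraries were Ptx1, Rpt3 and fipi, with Pearson r of 0.995, 0.995 and 0.994 on the log2 scale. Rpt3, a proteasome subunit gene, had 73313, 77219 and 72425 normalized counts in Mad knockdown and 61615, 69390 and 57915 in control knockdown. None of these 3 genes was called in limma, and 62 tested genes had an r of at least 0.95 with Lpin.

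Around these 10 genes, other genes of lipid metabolism were examined in 6 lists written from general knowledge. Of 64 names, 62 were found in the table and 57 were tested. Among them limma called 3 of 57, or 5.26%, against the background of 2.59%, with 2 higher (background 1.02%) and 1 lower (background 1.57%). The groups did not overlap for 12 of the 57, or 21.1%, where the background was 24.6%. Their median log2 fold change was 0.015, where that of all tested genes was 0.0054, and it was -0.00023 without control replicate 3. The 3 called genes were S1P, Baldspot and CG1941.

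In the list of SREBP processing and lipogenic transcription factors, limma called 1 of 7 genes, or 14.3%, higher in Mad knockdown (background 1.02%). It called none lower (background 1.57%), and fitted changes were above 0 for 3 genes and below 0 for 4. S1P (FBgn0037105, 3L, 21613797 to 21617376) encodes the site-1 protease, which in mammals makes the first of the cuts that free SREBP from the membrane. It had 1029, 956 and 1001 normalized counts in Mad knockdown and 605, 539.8 and 588 in control knockdown. All Mad knockdown libraries were far above all control libraries. S1P rose 1.72-fold, which is 0.78 on the log2 scale (95% interval 0.59 to 0.98), and its limma adjusted p-value was 0.00986. The call was lost in 1 of 18 alternative fits, without control replicate 2, at an adjusted p-value of 0.0531. The other genes of SREBP release stayed uncalled, with SCAP, the escort protein of SREBP, at 4561 ± 239 in Mad knockdown and 4393 ± 221 in control knockdown, and S2P, the site-2 protease, at 1961 ± 135 in Mad knockdown and 2034 ± 22.0 in control knockdown. The most negative of the list was bigmax, the partner of the sugar sensor Mondo, at a log2 fold change of -0.078 without overlap between groups and with no call. The list median was -0.019, and 0.0057 without control replicate 2.

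In the list of fatty acid and glycerolipid synthesis 18 of 22 genes were tested. Fitted changes were above 0 for 11 of them and below 0 for 7. limma called 1 higher and 1 lower in Mad knockdown (backgrounds 1.02% and 1.57%). Baldspot (FBgn0260960, 3L, 16648442 to 16661615), a fatty acid elongase related to mammalian ELOVL6, had 42039, 40619 and 37122 normalized counts in Mad knockdown and 31479, 29085 and 28268 in control knockdown. The groups did not overlap, and Baldspot rose 1.35-fold (95% interval 1.19 to 1.53, adjusted p = 0.0440 in limma). This call is weak, as it was lost in 9 of 18 alternative fits, among them each of the 6 that left out a library, where the adjusted p-value ran from 0.0547 to 0.154.

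CG1941 (FBgn0033214, 2R, 7709873 to 7711981), a gene of the DGAT2 family of acyltransferases, had 903, 1183 and 1146 normalized counts in Mad knockdown and 2018, 2374 and 2519 in control knockdown. Every Mad knockdown library was below every control library. CG1941 fell, with a log2 fold change of -1.10 (SE 0.133), to 46.8% of control, and its adjusted p-value in limma was 0.0145. The call was lost in 2 of 18 alternative fits, without control replicate 2 (adjusted p = 0.0759) and without control replicate 3 (adjusted p = 0.0635). Its paralog Dgat2 starts 596 bases after it on the same strand and had 13.1, 22.7 and 12.1 normalized counts in Mad knockdown and 19.5, 18.7 and 16.4 in control knockdown, and CG1946 of the same family was listed at 0 in all libraries. Whether the paralogs share reads was not tested. The most positive gene of the list, ATPCL, which makes the acetyl-CoA for fat synthesis, had 224312, 226353 and 183292 normalized counts in Mad knockdown and 168889, 139198 and 143407 in control knockdown. The groups of ATPCL did not overlap, but its log2 fold change of 0.49 (SE 0.130) was not called in limma (adjusted p = 0.106) or edgeR (0.102), while DESeq2 called it (0.00260). The list median was 0.017, but without Mad knockdown replicate 1 it was -0.012 and without Mad knockdown replicate 3 it was 0.072, so its sign is not read.

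**Figure D5:**
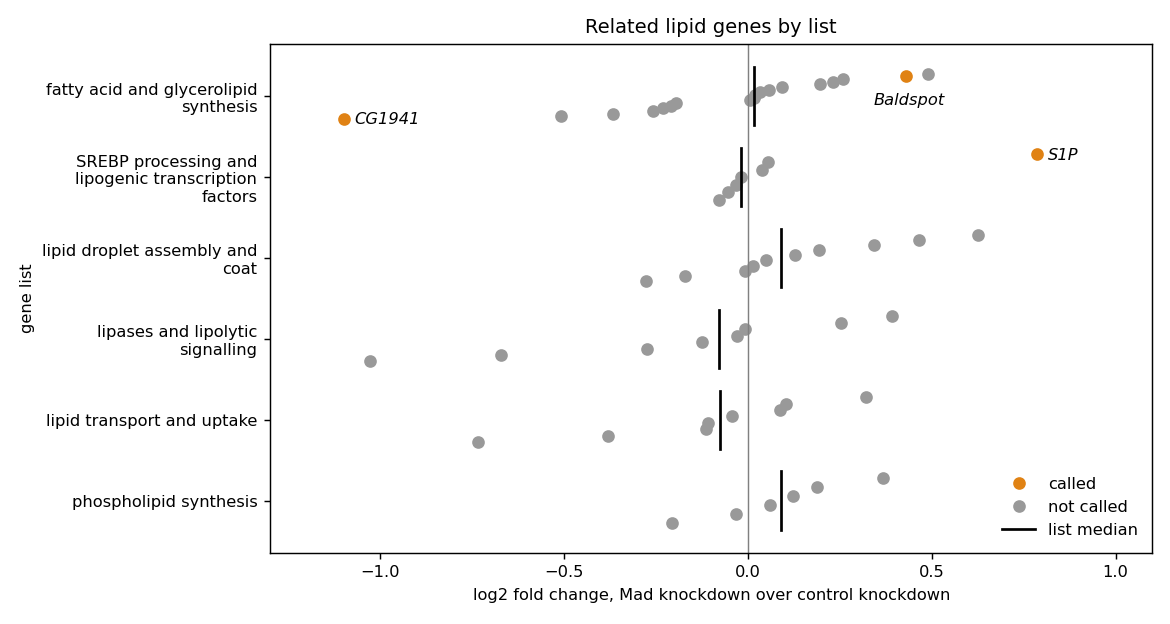
Log2 fold change, Mad knockdown over control knockdown (x axis), of the 57 tested genes of the 6 lists of related lipid genes (rows), each point a gene and each black line the list median. Orange points are called in limma at an adjusted p-value under 0.05, and these are S1P and Baldspot above 0 and CG1941 below 0.

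In the other 4 lists limma called 0 genes (background 2.59%) and edgeR also called 0 (background 2.44%). At an unadjusted p-value under 0.05 in limma there were 2 of 10, 1 of 8, 1 of 8 and 2 of 6 genes. For all tested genes that share was 19%. The list of lipid droplet assembly and coat had 10 genes tested and a median of 0.089. Its most positive gene was Ldsdh1, a droplet dehydrogenase, with 180.3, 132 and 118 normalized counts in Mad knockdown and 83.0, 54.1 and 168 in control knockdown, which overlap. Its most negative was Pcyt2, an enzyme of phosphatidylcholine synthesis, with a log2 fold change of -0.28. The droplet protein gene sturkopf, named after its values were seen, had 14611, 13395 and 12841 normalized counts in Mad knockdown and 10738, 10385 and 11076 in control knockdown, without overlap. It missed the threshold in limma (adjusted p = 0.0551) and edgeR (0.0561) and was called in DESeq2 (0.00140).

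Of the lipases and lipolytic signalling 8 of 10 genes were tested, with a median of -0.078. Acbp2, an acyl-CoA binding protein gene, was the most negative, with 78.5, 56.2 and 147 normalized counts in Mad knockdown and 354, 87.4 and 180.5 in control knockdown. These overlap, and the high control mean rests on replicate 1. The most positive was Lip4, a lipase gene, with 171, 132 and 122 in Mad knockdown and 91.5, 106 and 125 in control knockdown.

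The 8 genes of lipid transport and uptake had a median of -0.076, which was 0.032 without control replicate 1, so its sign is not read. Apoltp, a lipid transfer particle gene, was the most negative, at 58.5 ± 17.1 normalized counts in Mad knockdown and 97.1 ± 25.9 in control knockdown, without overlap. The most positive was LpR1, a lipophorin receptor gene, at 6524 ± 393 in Mad knockdown and 5316 ± 1215 in control knockdown, with overlap. Neither was called, at adjusted p-values of 0.262 and 0.380 in limma. Of the phospholipid synthesis list 6 of 7 genes were tested, with a median of 0.090. Its most positive gene was bbc, the last enzyme of phosphatidylcholine and phosphatidylethanolamine synthesis, with 3986, 4675 and 4059 normalized counts in Mad knockdown and 3257, 3239.99 and 3341 in control knockdown. The groups of bbc did not overlap, its adjusted p-value was 0.0613 in limma and 0.0619 in edgeR, and DESeq2 called it (0.00300). The most negative was Pect, an enzyme of phosphatidylethanolamine synthesis, at 4560.0 ± 212 in Mad knockdown and 5270.2 ± 453 in control knockdown. The groups of Pect did not overlap either, and it was not called (adjusted p = 0.234 in limma).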

How the data were processed

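Total RNA was extracted with Trizol and polyadenylated RNA was sequenced, per the labels' protocols. The authors deposited a table of normalized counts, a signal per gene in which each column is gene counts divided by 1 factor per library. Each column held whole multiples of a single step for 100% of its values within a tolerance of 0.001, so counts could be recovered. The genome build was dm6 per the submitters' processing notes. The aligner, counter, annotation and strand setting are not given in the sources used here, so overlapping and paralogous genes are uncertain.

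limma 3.58.1 in R 4.3.3 (lmFit, eBayes with a trend) was run on log2(normalized count + 1) of all genes with at least 10 normalized counts in at least 3 libraries, Mad knockdown against control knockdown, two-sided, with Benjamini-Hochberg adjustment over the 10348 genes tested. A gene was called under 0.05. The pseudocount of 1 makes fold changes understate those of low genes. Intervals are the 95% intervals of limma. Recovered counts were tested with edgeR 4.0.16 (quasi-likelihood, 252 genes called) and DESeq2 1.42.0, and the procedures were tested on simulated data. The labels do not say that libraries came from separate cultures or crosses, so p-values measure only the spread between these libraries.

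Exon lengths and positions came from Ensembl release 115 for BDGP 6.54, which uses dm6 coordinates. Sequences were not used here. The 10 genes and all lists were chosen with earlier results of these data known. The text names all 10 genes, Mad, and of each list of related genes the called genes and the most positive and most negative. It also names the 3 genes most correlated with the member of lowest p-value. Other genes were named after their values were seen. FASN3 and Pss were not matched in the table, and 6 names were matched through newer symbols. Replicate numbers are shared between groups, but deviations of same-numbered libraries had correlations of -0.14, -0.066 and 0.037, so they were not taken as pairs.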

Additional observations from a re-analysis of the deposited data

How the results depend on the processing

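None of the 10 genes was called in any of the 18 alternative fits. The 2 stricter thresholds could not add a call. The fits with 1 library left out called fewer of all tested genes, 43 to 193 against 268, so they had less power to call any. SREBP, Desat1, Lpin, mdy and bmm had a positive log2 fold change in all 18 fits, though its size depended on single libraries. With 1 library left out it ran from 0.14 to 0.22 for SREBP, 0.078 (without Mad knockdown replicate 1) to 0.18 for Desat1, 0.13 to 0.22 for Lpin, 0.062 (without control replicate 2) to 0.31 (without control replicate 1) for mdy and 0.11 (without control replicate 2) to 0.29 (without control replicate 1) for bmm. Without Mad knockdown replicate 2 mdy was at 0.092. The other 5 had log2 fold changes from -0.080 to 0.050 in the main fit. They turned sign in some fits, where the cause was not tested. The change of Lsd-1, at -0.080, was the least certain, with a 95% interval of the fold from 0.556 to 1.61. FASN1 was at 0.0099 after quantile normalization, 0.010 with 75th percentile scaling, 0.00090 with TMM scaling, 0.012 in edgeR and 0.0033 in DESeq2, and Lsd-2 at 0.0088 after quantile normalization. Leaving out 1 library at a time gave -0.13 to 0.18 for FASN1, -0.040 to 0.13 for ACC, -0.014 to 0.099 for Hsl, -0.38 to 0.17 for Lsd-1 and -0.045 to 0.013 for Lsd-2.

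The number of all tested genes called (268) was 138 without the trend, 117 with the replicate block, 1000 in DESeq2, 49 at an adjusted p-value under 0.01, 116 when the log2 fold change also had to reach 1 in size, and 43 to 193 with 1 library left out. Of the 57 related lipid genes tested (3 called), 5 were called after quantile normalization, where 269 of all tested genes were called. DESeq2 called 6 of them, against a background of 9.69%. Between 0 and 2 were called with 1 library left out, and 0 without control replicate 2. With 1 library left out the list medians ran from 0.055 to 0.15 for droplet genes, -0.15 to -0.044 for lipases and 0.061 to 0.13 for phospholipid synthesis. Mad kept its direction but lost its call without the trend (-0.57, adjusted p = 0.0981), with the replicate block (-0.57, adjusted p = 0.0787) and in edgeR (-0.55, adjusted p = 0.0516), and ran from -0.66 to -0.47 in limma with 1 library left out. With the replicate block S1P and CG1941 stayed called and Baldspot did not (adjusted p = 0.0640). With 3 libraries in each group, the spread between libraries limits these values. Depth can also limit the lowest of the related genes, such as Dgat2 at 12.1 to 22.7 normalized counts. Spread and counting error were not separated.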
